A study of Mus musculus with 12 samples.

Results

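The genes described here encode NRF2 (gene symbol Nfe2l2), its inhibitor Keap1 and 8 antioxidant enzymes or enzyme subunits whose genes are known as NRF2 targets: Gclc, Gclm, Gsr, Txnrd1, Srxn1, G6pdx, Nqo1 and Gpx2. They were chosen by symbol, through the Ensembl identifiers of the count table, and make up 10 of its 55487 genes. Earlier results of these data were known when they were chosen, so their counts beside all tested genes are descriptive. All 10 passed the filter on low counts that left 19581 genes for testing. The libraries came from C57BL/6 mice, male or female and between 6 and 10 weeks of age, and no group received a test drug. SI tissue was crypts freshly isolated from the small intestine, and LI tissue was crypts freshly isolated from the large intestine. SI monolayers were grown from crypts of the jejunum and LI monolayers from crypts of the large intestine, on Matrigel for 24 h. The study names the jejunum in its culture methods and gives no segment for the SI tissue libraries. Each of the 4 groups held 3 libraries, described by the study as 3 mice for tissue and 3 pooled wells for monolayers. Nothing says that the wells came from separate cultures, so the spread between monolayer libraries may be technical. P-values that rest on it measure that spread only. The spread of each gene was estimated from all 4 groups together, so SEs and p-values of tissue comparisons rest partly on monolayer libraries too. These may understate the spread between mice. Nothing ties a monolayer library to a tissue library either, and "before" and "after culture" are used for tissue and monolayer libraries as separate samples. For cultures, the study took the large intestine from the mice that gave the jejunum. SI and LI libraries may thus share mice, and the main model fitted no pairing.

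Several features limit these groups as models. In the culture methods, SI crypts were released with EDTA alone in ice-cold buffer. LI crypts were freed by collagenase and dispase digestion followed by EDTA, in warmed medium with a ROCK inhibitor. Isolation for the tissue libraries is not described separately. Region and isolation therefore cannot be told apart in any SI to LI difference. Monolayers were seeded in medium with a Wnt pathway activator and a ROCK inhibitor and then kept in medium with Wnt3a, EGF, Noggin and R-spondin-1. Both media contained N-acetylcysteine, itself an antioxidant. In the culture methods the basal medium that carries it was also used for the LI digestion and to wash crypts of both regions. All libraries are bulk RNA, in which fewer cells of a type and less RNA per cell cannot be told apart.

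NRF2 is a basic leucine zipper transcription factor that, with a small Maf partner, binds antioxidant response elements in the promoters of detoxification genes. KEAP1, the substrate adaptor of a CUL3 ubiquitin ligase, holds NRF2 for degradation until its reactive cysteines are modified by electrophiles or oxidants, so that much of NRF2 control lies at the level of protein stability rather than of Nfe2l2 mRNA. In the intestinal epithelium, which meets electrophiles from food and bacteria, the target genes supply glutathione, reduced thioredoxin and NADPH and remove quinones and hydroperoxides.

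The genes lie on 7 chromosomes of GRCm38 (positions from GENCODE M21). Nfe2l2 (ENSMUSG00000015839.6) is at chr2:75675513-75704641 and Keap1 (ENSMUSG00000003308.15) at chr9:21229730-21239361, both on the minus strand. The glutathione genes are Gclc (ENSMUSG00000032350.9, chr9:77754535-77794485, plus), Gclm (ENSMUSG00000028124.15, chr3:122245557-122270732, plus) and Gsr (ENSMUSG00000031584.16, chr8:33652523-33698163, plus). The thioredoxin genes are Txnrd1 (ENSMUSG00000020250.10, chr10:82833951-82897712, plus) and Srxn1 (ENSMUSG00000032802.8, chr2:152105516-152111376, plus). G6pdx (ENSMUSG00000031400.10) is at chrX:74409483-74429194, Nqo1 (ENSMUSG00000003849.8) at chr8:107388225-107403206 and Gpx2 (ENSMUSG00000042808.8) at chr12:76792333-76795554, all on the minus strand.

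The core of the antioxidant response element can be written TGACNNNGC. Windows from 250 bases before to 50 bases after the transcript start came from a table of RefSeq sequences (GRCm38.p6), in which 8 of the 10 genes were matched. Gclc and Gsr were not analysed here. These letters, searched on both strands, occurred in windows of 5 of the 8 genes. They occurred in 12.4% of the 32851 windows of all genes, and 14.0% of 27025 genes had a match in at least 1 window. Elements outside the windows, or with other core letters, would not be found, so a gene without a match may still have an element. The matches are printed here with 10 bases on either side, so that the variable middle bases and the flanks can be compared between genes. Capitals mark the match, and each line reads 5′ to 3′ along the strand that holds it.
Nfe2l2, chr2:75704885-75704913, minus: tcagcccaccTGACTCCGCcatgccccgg
Gclm, chr3:122245413-122245441, minus: tcgtgagagtTGACGGTGCgcccgggagc
Txnrd1, chr10:82859104-82859132, minus: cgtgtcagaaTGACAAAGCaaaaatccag
Srxn1, chr2:152105542-152105570, minus: tgtctcactcTGACCTAGCtgcccactgc
G6pdx, chrX:74428919-74428947, plus: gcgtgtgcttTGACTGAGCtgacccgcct

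The Srxn1 match lay after its RefSeq transcript start, 28 to 36 bases downstream, and the other 4 lay before theirs. The G6pdx and Txnrd1 matches nevertheless lay inside the gene spans given above, which begin farther upstream than those starts. In Txnrd1, which has several starts, the match belonged to 1 start, and there it was followed by A, as in the longer form of the element. No other match among the 8 genes was followed by A. No match to TGACNNNGC overlapped an AP-1 site, searched as TGANTCA on both strands. That AP-1 motif occurred in 1 of the 8 genes, Srxn1, in 7.81% of all windows, and in at least 1 window of 8.97% of all genes. The Srxn1 AP-1 match nearer the start, printed below, is followed by gc. It thus reads TGAGTCAGC, which differs from the searched core by G in place of C, and that form was not searched. The stretches upstream of Srxn1, Nqo1 and Gpx2, genes that differed between SI and LI monolayers as described further on, are printed up to the annotated gene start, with AP-1 matches in capitals.
Srxn1, chr2:152105274-152105515, plus: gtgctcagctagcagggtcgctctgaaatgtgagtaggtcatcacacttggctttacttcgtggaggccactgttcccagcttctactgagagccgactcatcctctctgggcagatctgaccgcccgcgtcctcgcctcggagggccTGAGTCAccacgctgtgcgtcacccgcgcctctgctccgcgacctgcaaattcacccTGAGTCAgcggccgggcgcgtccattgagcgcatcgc
Nqo1, chr8:107403207-107403455, minus: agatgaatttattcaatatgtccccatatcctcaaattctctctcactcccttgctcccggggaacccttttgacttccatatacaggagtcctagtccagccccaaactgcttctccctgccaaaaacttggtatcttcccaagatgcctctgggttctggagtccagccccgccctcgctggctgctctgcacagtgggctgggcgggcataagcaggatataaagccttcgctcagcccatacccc
Gpx2, chr12:76795555-76795804, minus: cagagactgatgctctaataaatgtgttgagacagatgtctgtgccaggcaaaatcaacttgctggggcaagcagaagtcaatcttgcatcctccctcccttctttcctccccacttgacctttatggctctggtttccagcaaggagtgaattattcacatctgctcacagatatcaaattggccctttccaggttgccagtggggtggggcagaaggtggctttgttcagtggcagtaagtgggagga

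Library totals ran from 59016196 to 76216530 counts, and the 10 genes received between 1196 and 112062 counts per library. Whether a count stands for a read pair or for each of its mates was not given in the sources used here. The 8 epithelial markers fixed for this purpose (such as Epcam and Cdh1) were detected in every group. Mitochondrial transcripts took 4.56% to 9.16% of counts in SI and 2.25% to 2.59% in LI before culture, and 0.472% to 0.559% in SI and 0.704% to 0.750% in LI after it. Normalized counts below are the authors' values. Fold changes are from edgeR's quasi-likelihood test, and a gene was called changed when its Benjamini-Hochberg adjusted p over all tested genes was under 0.05 and it differed at least 2-fold, that is by at least 1 on the log2 scale.

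Nfe2l2 mRNA was higher in monolayers than in tissue in both regions and higher in SI than in LI in both preparations, with all of these differences under 2-fold. Normalized counts were 13515, 12835 and 12410 in SI tissue and 22335, 22444 and 22699 after culture. The LI libraries held 9053, 10748 and 8906 as tissue and 15737, 16282 and 17117 as monolayers. No library of one group overlapped another group, and the order was SI monolayers, LI monolayers, SI tissue, LI tissue. From tissue to monolayers the log2 fold change was 0.83 ± 0.07 (SE) in SI and 0.82 ± 0.07 in LI (edgeR adjusted p = 1.49e-08 and 9.74e-09). The change in SI minus that in LI was 0.01 ± 0.09 (edgeR adjusted p = 0.928).

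Keap1 mRNA varied less than Nfe2l2 mRNA. In SI, tissue held 4730, 4795 and 4751 normalized counts and monolayers held 5298, 5255 and 5482. In LI the same groups held 5585, 5583 and 5447 and 4084, 4065 and 4040. The monolayers thus lay above the tissue in SI and below it in LI. The log2 fold changes were 0.20 ± 0.04 in SI (edgeR adjusted p = 0.000728) and -0.40 ± 0.04 in LI (4.14e-07), and they differed by 0.60 ± 0.06 (adjusted p = 8.24e-07). Each was under the 2-fold minimum.

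Gclc, the catalytic subunit of glutamate-cysteine ligase, which carries out the rate-limiting step of glutathione synthesis, was the one of the 10 genes at least 2-fold higher in SI monolayers than in SI tissue. SI tissue had normalized counts of 3696, 3405 and 3917, against 12214, 12785 and 12717 in monolayers of that region. For LI the values were 5182, 5122 and 4588 before and 6532, 6607 and 6325 after culture. The lowest group was SI tissue and the highest was SI monolayers, with both LI groups between them. Gclc rose 3.51-fold in SI (log2 1.81 ± 0.06, edgeR adjusted p = 9.52e-13). In LI it was 1.35-fold higher in monolayers (log2 0.43 ± 0.06, adjusted p = 7.05e-06), under the minimum, and the log2 change in SI exceeded that in LI by 1.38 ± 0.08 (edgeR adjusted p = 3.47e-09).

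Gclm, the modifier subunit that eases feedback inhibition of the same ligase, did not follow Gclc. The 3 SI tissue libraries gave 7114, 6718 and 5592 normalized counts and the 3 SI monolayer libraries 6369, 6944 and 7091. The LI values were 5492, 5397 and 5964 in tissue and 5157, 5335 and 5254 in culture. The SI groups overlapped each other, and SI tissue overlapped LI tissue through library 3 of SI tissue. The log2 fold changes from tissue to monolayers were 0.11 ± 0.07 in SI and -0.05 ± 0.08 in LI (edgeR adjusted p = 0.236 and 0.551).

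Gsr, glutathione reductase, which regenerates glutathione with NADPH, differed chiefly by region. Before culture, normalized counts were 21533, 28857 and 23727 for SI and 8730, 8669 and 8617 for LI. After culture they were 20649, 21641 and 21821 for SI and 11829, 11667 and 12180 for LI. Every SI library lay above every LI library. SI tissue held 2.93-fold more than LI tissue (log2 1.55 ± 0.08, edgeR adjusted p = 1.25e-10), while in monolayers the ratio was 1.83 (log2 0.87 ± 0.08, adjusted p = 9.66e-08), under the minimum. These SEs come from a spread shared by all groups. The SD of the normalized counts was 3759 in SI tissue, 56.5 in LI tissue, 631 in SI monolayers and 262 in LI monolayers.

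Txnrd1, the cytosolic thioredoxin reductase, was higher in monolayers than in tissue in both regions. Normalized counts were 23715, 23529 and 21459 in SI tissue and 35153, 34849 and 35412 after culture. The LI libraries held 21770, 21314 and 20168 as tissue and 28749, 29554 and 29136 as monolayers. The monolayer libraries of either region lay above all 6 tissue libraries, and the SI and LI tissue libraries overlapped. The log2 fold change was 0.65 ± 0.05 in SI and 0.51 ± 0.05 in LI (edgeR adjusted p = 8.47e-09 and 8.36e-08), each under 2-fold, and the difference between them was 0.14 ± 0.07 (adjusted p = 0.112).

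Srxn1, sulfiredoxin, which restores overoxidized peroxiredoxins, was lower in LI monolayers than in the other 3 groups. In SI, tissue held 20407, 22024 and 17713 normalized counts and monolayers held 19418, 19445 and 19548. In LI the same groups held 13123, 12197 and 11585 and 6112, 6534 and 6386. The SI groups overlapped, all SI libraries lay above LI tissue, and LI tissue lay above LI monolayers. From tissue to monolayers the log2 fold change was -0.01 ± 0.06 in SI (edgeR adjusted p = 0.938) and -0.91 ± 0.07 in LI (2.94e-09), a 1.88-fold lower value that passed the minimum with upper quartile normalization (-1.03). SI monolayers held 3.13-fold more Srxn1 than LI monolayers (log2 1.65 ± 0.07, edgeR adjusted p = 9.45e-12).

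G6pdx, the X-linked dehydrogenase that opens the pentose phosphate pathway and yields NADPH, stood highest in SI monolayers. SI tissue had normalized counts of 7103, 8551 and 7038, against 13221, 13152 and 13488 in monolayers of that region. For LI the values were 6138, 6251 and 6485 before and 5048, 5431 and 5739 after culture. All 4 groups were free of overlap. The log2 fold change with culture was 0.85 ± 0.07 in SI and -0.17 ± 0.07 in LI (edgeR adjusted p = 1.91e-08 and 0.0323), both under the minimum, and the difference between them was 1.02 ± 0.10 (adjusted p = 3.44e-07). That difference was 0.98 without SI tissue library 1, 0.98 without SI tissue library 3 and 0.99 without LI tissue library 3, each just under the minimum. SI monolayers exceeded LI monolayers 2.51-fold (log2 1.33 ± 0.07, edgeR adjusted p = 1.53e-10). G6pdx shares 13.6% of its exon bases with Ikbkg, which received 2157 to 3340 counts per library, and the strand setting of the counting was not given in the sources used here. Its autosomal copy G6pd2 received 12 to 60 counts.

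Nqo1, a quinone reductase often used as a readout of NRF2 activity, fell in LI monolayers and was higher in SI monolayers than in SI tissue. The 3 SI tissue libraries gave 2828, 2431 and 2514 normalized counts and the 3 SI monolayer libraries 3720, 3626 and 4027. The LI values were 3085, 3344 and 3113 in tissue and 1232, 1373 and 1524 in culture. No group overlapped another, and LI monolayers were the lowest. Nqo1 fell 2.24-fold in LI (log2 -1.16 ± 0.08, edgeR adjusted p = 1.53e-09). In SI it was 1.5-fold higher in monolayers (log2 0.58 ± 0.08, adjusted p = 7.44e-06), under the minimum, and the log2 change in SI minus that in LI was 1.75 ± 0.11 (edgeR adjusted p = 5.34e-09). The SI to LI difference turned from -0.26 ± 0.08 in tissue (adjusted p = 0.0111, under the minimum) to 1.49 ± 0.08 in monolayers (edgeR adjusted p = 2.49e-10), where SI held 2.81-fold more.

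Gpx2, the glutathione peroxidase of the gastrointestinal epithelium, was lower in monolayers in both regions. Before culture, normalized counts were 93012, 116815 and 99610 for SI and 51233, 53555 and 55000 for LI. After culture they were 53426, 52768 and 52836 for SI and 16822, 18082 and 20688 for LI. SI monolayers and LI tissue overlapped, SI tissue stood above both, and LI monolayers stood below both. Gpx2 fell 2.79-fold in LI (log2 -1.48 ± 0.08, edgeR adjusted p = 1.31e-10), and in SI it was 1.90-fold lower (log2 -0.93 ± 0.08, adjusted p = 6.06e-08), just under the minimum. The difference between these changes was 0.55 ± 0.11 (edgeR adjusted p = 0.000826). SI exceeded LI by 0.99 ± 0.08 in tissue (adjusted p = 3.72e-08), just under the minimum, and by 1.55 ± 0.08 or 2.92-fold in monolayers (edgeR adjusted p = 2.59e-10). Without SI tissue library 1, SI tissue library 3 or LI tissue library 3, the tissue difference passed the minimum as well.

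**Figure D1:**
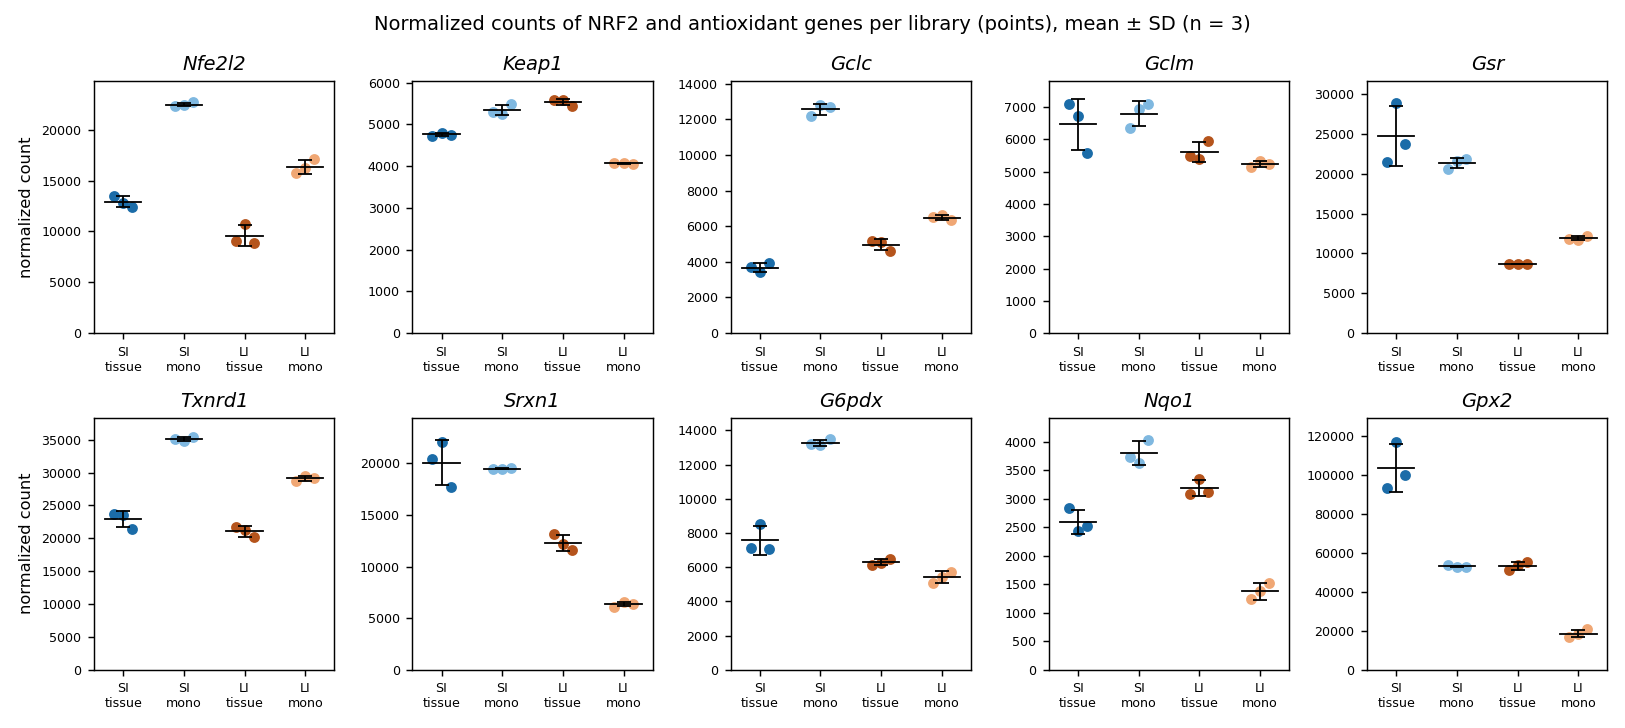
Normalized counts (vertical axes, starting at 0) of the 10 genes in each library, as points, with the mean and SD of each group (n = 3, horizontal axes). LI monolayers have the lowest mean for Keap1, Gclm, Srxn1, G6pdx, Nqo1 and Gpx2. SI monolayers have the highest mean for Nfe2l2, Gclc, Gclm, Txnrd1, G6pdx and Nqo1.

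Levels can be compared between genes only per length, as counts per kilobase of the longest coding transcript, scaled to the library total (RPKM). On that scale Gpx2 was the most abundant of the 10 in every group, at 1438.2 ± 165 (SD, n = 3) in SI and 722.6 ± 33.0 in LI before culture, and at 757.3 ± 3.23 in SI and 259.4 ± 26.4 in LI after it. Because reads were counted over all exons of a gene, the levels were also divided by the length of all its exons, which is 3222 bases for Gpx2 against 1067 in the transcript, and 7086 against 3622 for Txnrd1. Gpx2 was the highest on that scale too, at 476.3 ± 54.8 in SI and 239.3 ± 10.9 in LI before culture, and at 250.8 ± 1.07 and 85.9 ± 8.75 after it.

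The gene in the next place differed between the scales. Gsr held it in SI tissue on both, at 137.5 ± 20.3 RPKM and 133.5 ± 19.8 per length of all exons. In LI tissue it was Txnrd1 by transcript length (84.2 ± 2.5 RPKM) and Srxn1 by the length of all exons (63.1 ± 3.33). In monolayers it was Txnrd1 by transcript length (147.9 ± 1.34 RPKM in SI and 120.2 ± 1.03 in LI) and Gsr by the length of all exons (118.3 ± 3.82 and 64.5 ± 1.42). Nfe2l2 itself ranged from 56.0 ± 6.00 RPKM (LI tissue) to 138.5 ± 1.51 (SI monolayers). The lowest level was that of Gclc in SI tissue (16.0 ± 1.22 RPKM) and that of Gclm in SI monolayers and LI tissue (18.6 ± 1.09 and 14.5 ± 0.906), on either scale. In LI monolayers it was Nqo1 by transcript length (13.2 ± 1.33 RPKM) and Gclm by the length of all exons (12.5 ± 0.140). The Gpx2 pseudogene Gpx2-ps1 received 140 to 1123 counts per library, at most 1.22% of those of Gpx2.

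With the 4 groups ordered by level for each gene, 24 of the 30 neighbouring pairs differed at an edgeR adjusted p under 0.05. For Nfe2l2, Gclc, Txnrd1, G6pdx and Nqo1 all 3 neighbouring pairs did. The 6 pairs that did not were SI monolayers and LI tissue for Keap1 (adjusted p = 0.652) and for Gpx2 (0.478), SI monolayers and SI tissue for Gclm (0.236), Gsr (0.0611) and Srxn1 (0.938), and LI tissue and LI monolayers for Gclm (0.551).

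Counted over the 10 genes, culture of SI crypts gave 1 called gene, Gclc, which rose, where 26.1% of all tested genes were called and 9.71% were called higher. Without a minimum fold change 7 of the 10 passed edgeR's test in SI (6 higher and 1 lower), where 59.6% of all tested genes did. Culture of LI crypts gave 2 called genes, Nqo1 and Gpx2, both lower, where 38.0% of all tested genes were called and 23.5% were called lower. Without the minimum 9 passed in LI (4 higher and 5 lower), beside 68.7% of all tested genes. The median log2 fold change of the 10 genes was 0.39 in SI and -0.11 in LI, beside -0.05 for all tested genes in each region. The genes with a called change were thus no larger a share of the 10 than of all tested genes in either region.

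**Figure D2:**
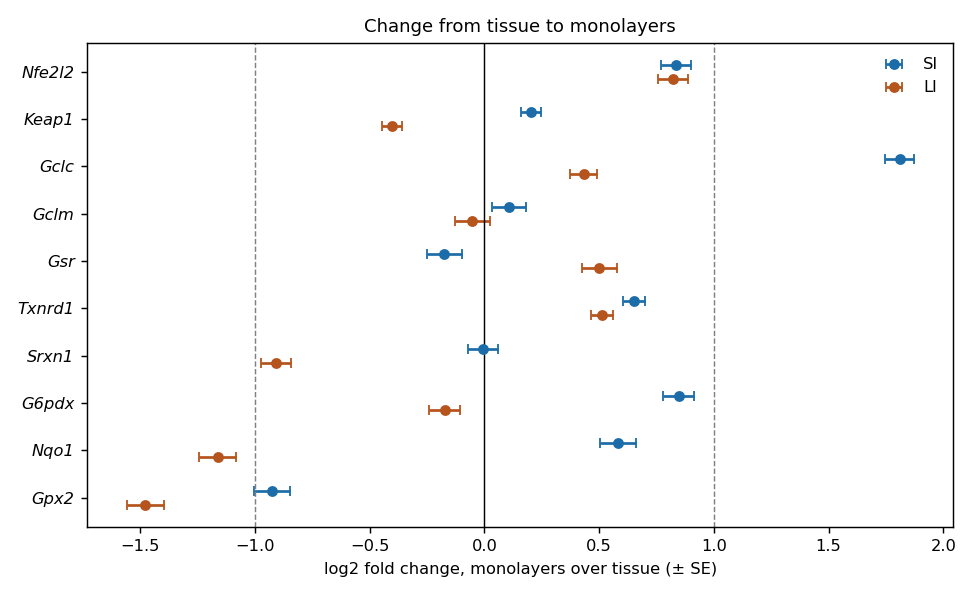
Log2 fold change from tissue to monolayers (horizontal axis, ± SE) of the 10 genes in SI and in LI, with dashed lines at a 2-fold change in either direction. Gclc in SI lies above the upper line, Nqo1 and Gpx2 in LI lie below the lower line, and Nfe2l2 has nearly the same value in both regions (0.83 and 0.82).

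Between regions, tissue gave 1 called gene of the 10, Gsr, higher in SI, where 22.7% of all tested genes were called and 11.6% were called higher. Monolayers gave 4, Srxn1, Gpx2, Nqo1 and G6pdx, all higher in SI, where 21.2% of all tested genes were called and 12.4% were called higher. Without a minimum fold change all 10 passed in tissue (7 higher and 3 lower in SI), beside 53.9% of all tested genes, and all 10 passed in monolayers, all higher in SI, where 51.8% of all tested genes passed and 27.0% did so in that direction. Gclc, 1.98-fold higher in SI monolayers (log2 0.98 ± 0.06, edgeR adjusted p = 1.09e-09), lay just under the minimum. In monolayers all 10 genes were higher in SI in every library than in any LI library, where 30.6% of all tested genes had this pattern. In tissue 5 of the 10 were higher in SI without overlap, 3 were lower (Keap1, Gclc and Nqo1) and 2 overlapped, and 58.8% of all tested genes had no overlap in either direction. The median log2 difference of SI over LI for the 10 genes was 0.27 in tissue and 0.93 in monolayers, beside 0.06 and 0.02 for all tested genes.

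**Figure D3:**
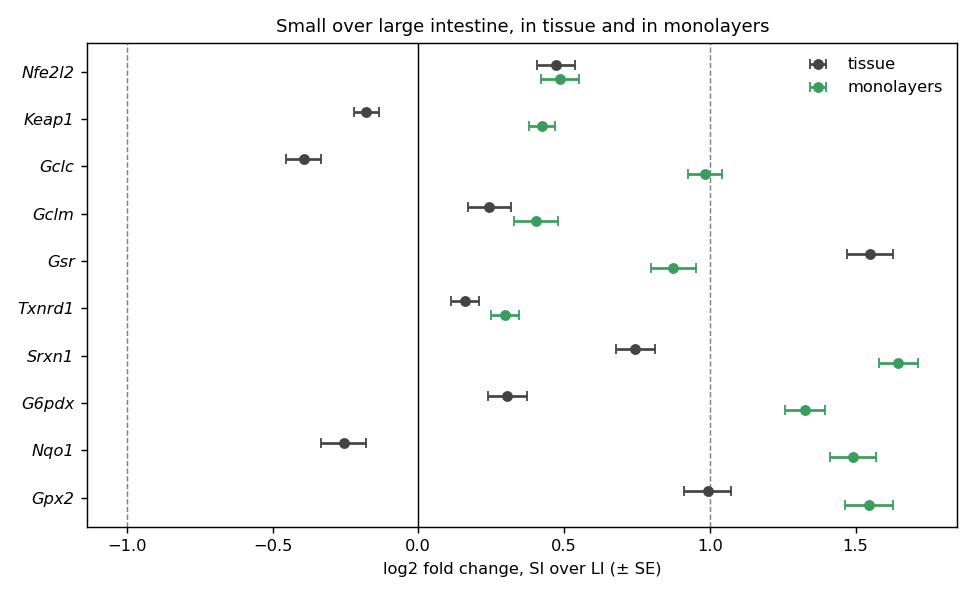
Log2 fold change of SI over LI (horizontal axis, ± SE) of the 10 genes in tissue and in monolayers, with dashed lines at a 2-fold difference. In monolayers all 10 lie to the right of 0 and Srxn1, Gpx2, Nqo1 and G6pdx pass the line, while in tissue Keap1, Gclc and Nqo1 lie to the left of 0 and Gsr alone passes the line.

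The difference between the SI and LI responses to culture, tested as an interaction, was called for 3 of the 10 genes, Nqo1, Gclc and G6pdx, all with the higher value in SI. Of all tested genes 20.0% were called and 11.4% were called with the higher value in SI. Without a minimum size 7 of the 10 passed (6 with the higher value in SI, and Gsr with the higher value in LI at -0.68 ± 0.11, edgeR adjusted p = 9.37e-05), beside 46.3% of all tested genes. The interaction is the same quantity whether read as a difference of culture changes or of regional differences, so it does not add to the comparisons above as separate evidence. Leaving out 1 library at a time gave 2 to 4 called genes, with G6pdx lost without the 3 tissue libraries named above and Srxn1 (0.90 ± 0.09 in the full set) gained in some.

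Markers of other cell types and states differed between the same groups. Markers that rose or fell are those called with culture. Of all tested genes 9.71% rose and 16.4% fell in SI, and 14.5% rose and 23.5% fell in LI. The summed level of 8 goblet cell markers went from a range of 16650 to 21064 counts scaled to the library total (CPM) in LI tissue to 1581 to 1760 after culture, where 8 of 8 fell, whereas in SI it was 5808 to 9271 CPM before and 4790 to 4923 after culture, and 2 of 8 fell. The 8 stem cell markers summed to 291 to 314 CPM before and 89.1 to 98.8 after culture in LI (5 of 8 fell), while the SI sums were 1385 to 1789 CPM before and 305 to 319 after culture (2 of 8 fell). Enterocyte markers fell in 3 of 8 cases in LI (1417 to 1790 CPM against 570 to 624) and in 4 of 8 in SI (8976 to 14011 against 3499 to 3724). Paneth cell markers ranged from 5510 to 27374 CPM among the 3 SI tissue libraries, against 8007 to 8682 after culture. Their LI sums were 440 to 972 CPM before and 71.6 to 95.1 after culture, and 1 of 8 fell in each region. A sum rests mostly on its most abundant genes. The median log2 fold change of the 8 enterocyte markers was -1.32 in SI and 0.35 in LI. For the 8 Paneth cell markers it was -1.15 in SI and 0.58 in LI. Both LI medians were thus positive although both LI sums fell.

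Immune cell markers summed to 190 to 199 CPM in SI tissue against 47.1 to 53.0 after culture, where 7 of 8 fell. In LI they summed to 34.2 to 37.6 CPM in tissue against 1.96 to 3.21 after culture, where 8 of 8 fell. Mesenchymal markers summed to 7.28 to 52.3 CPM over all libraries, and 1 of 8 fell in SI while 2 rose and 2 fell in LI. Proliferation markers went from 804 to 862 CPM to 1089 to 1106 with culture of SI and from 646 to 718 to 929 to 988 with culture of LI. Neither edgeR nor DESeq2 called any of the 8 in either region (7 in SI and 5 in LI had an unadjusted edgeR p under 0.05). Without the 2-fold minimum, 7 in SI and 5 in LI also had an edgeR adjusted p under 0.05, all higher in monolayers. Epithelial markers summed to 11757 to 23811 CPM over all libraries. No marker was at 0 in every library of a group. The part of these markers, and of the mitochondrial share, in the changes of Gclc, Nqo1, Gpx2 and the other genes was not tested.

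The pathway around these genes was followed in 56 further genes in 7 lists, all of which were tested. The lists were chosen with earlier results of these data known, so their counts beside all tested genes are descriptive. In SI 15 rose and 6 fell with culture, where 9.71% of all tested genes rose and 16.4% fell. In LI 10 rose and 14 fell, where 14.5% and 23.5% of all tested genes did. In tissue SI exceeded LI for 9 and LI exceeded SI for 8, beside 11.6% and 11.1% of all tested genes. In monolayers the numbers were 16 and 4, beside 12.4% and 8.88%. The interaction was called for 13 with the higher value in SI and for 5 with the lower, beside 11.4% and 8.51%. The median log2 fold change over the 56 genes was 0.14 for culture in SI and -0.22 for culture in LI, beside -0.05 for all tested genes in each. For SI over LI it was 0.00 in tissue and 0.43 in monolayers, beside 0.06 and 0.02.

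Among 10 partners and regulators of NRF2, 3 rose and none fell in each region. Beside this list and those that follow, 9.71% of all tested genes rose and 16.4% fell in SI. In LI the shares were 14.5% and 23.5%. Maff, a small Maf protein, had 1029, 1142 and 1153 normalized counts in SI tissue and 2923, 3538 and 3644 in SI cultures, with 1436, 1163 and 1130 and 4840, 5114 and 5185 for the same groups in LI. Both monolayer groups lay above both tissue groups. Maff rose 3.11-fold in SI (log2 1.64 ± 0.10, edgeR adjusted p = 6.82e-10) and 4.19-fold in LI (2.07 ± 0.10, adjusted p = 1.95e-11). None of the 10 was called between regions by edgeR or DESeq2, in tissue or in monolayers, while 9 and 6 of them had an unadjusted edgeR p under 0.05. At an edgeR adjusted p under 0.05 without the minimum, 4 were higher and 5 lower in SI tissue than in LI tissue. In monolayers 6 were lower in SI by the same rule.

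Of 8 further genes of glutathione synthesis and turnover, 4 rose and 2 fell in SI, and 3 rose and 3 fell in LI. Slc7a11, the cystine importer subunit that brings in the cysteine for glutathione, had 94, 142 and 102 normalized counts in SI and 250, 146 and 148 in LI before culture, and 3677, 3430 and 3199 in SI and 639, 667 and 650 in LI after it. It rose 31.2-fold in SI (log2 4.96 ± 0.19, edgeR adjusted p = 1.37e-10) and 3.72-fold in LI (1.89 ± 0.18, adjusted p = 4.45e-07). Chac1, which degrades glutathione, had 151, 477 and 266 normalized counts in SI tissue against 5922 to 6543 after culture, and 434, 183 and 150 in LI tissue against 4738 to 4863 after culture. It rose 21.1-fold in SI (log2 4.40 ± 0.46, edgeR adjusted p = 3.29e-05) and 19.5-fold in LI (4.28 ± 0.46, adjusted p = 2.86e-05).

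In the same list Ggt1, the cell-surface enzyme that cleaves extracellular glutathione, had 43307, 40215 and 27073 normalized counts in SI tissue against 5663 to 5951 after culture. Its LI libraries held 70 to 378 as tissue and 146 to 301 as monolayers. It fell 6.23-fold in SI (log2 -2.64 ± 0.45, edgeR adjusted p = 0.000858) and was not called in LI (0.24 ± 0.54, adjusted p = 0.711). SI tissue exceeded LI tissue 194-fold (log2 7.60 ± 0.58, edgeR adjusted p = 5.26e-06). Glrx, glutaredoxin, fell 8.08-fold in LI (log2 -3.01 ± 0.13, adjusted p = 2.75e-10) and 4.24-fold in SI (-2.08 ± 0.12, adjusted p = 1.07e-08). Cbs, which starts the conversion of homocysteine to cysteine, was 36.7-fold lower in SI than in LI tissue (log2 -5.20 ± 0.13, edgeR adjusted p = 2.99e-14) and 3.87-fold lower in SI than in LI monolayers (-1.95 ± 0.11, adjusted p = 2.69e-10).

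Of 11 further thioredoxin and peroxiredoxin genes, 1 rose and 2 fell in SI, and 1 rose and 5 fell in LI. Sesn2, a stress-responsive sestrin, was the one that rose, 3.90-fold in SI (log2 1.96 ± 0.09, edgeR adjusted p = 1.82e-11) and 2.86-fold in LI (1.52 ± 0.09, adjusted p = 1.3e-10). Prdx6, a peroxiredoxin that uses glutathione, had 16286 to 16781 normalized counts in SI tissue against 22630 to 23340 after culture. In LI it had 124773, 94572 and 137227 as tissue and 12962 to 13779 as monolayers. It fell 8.58-fold in LI (log2 -3.10 ± 0.11, edgeR adjusted p = 6.01e-12) and was 1.42-fold higher in SI monolayers (0.50 ± 0.10, adjusted p = 0.00053), under the minimum. Prdx5, a mitochondrial and peroxisomal peroxiredoxin, fell 2.32-fold in SI (log2 -1.21 ± 0.06, edgeR adjusted p = 7.6e-11), Prdx1 was 2.19-fold higher in SI than in LI tissue (1.13 ± 0.06, adjusted p = 4.55e-10), and Txnrd2, the mitochondrial thioredoxin reductase, was 2.27-fold higher in SI than in LI monolayers (1.18 ± 0.08, adjusted p = 3.04e-09).

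Of 6 further NADPH-supplying genes, none was called in SI by edgeR or DESeq2, where 4 had an unadjusted edgeR p under 0.05. Without the minimum, 3 were higher and 1 lower in SI monolayers at an edgeR adjusted p under 0.05. In LI 1 rose. The one called was Me1, malic enzyme, with 711 to 1521 normalized counts in LI tissue against 2540 to 3196 after culture (log2 1.54 ± 0.25, edgeR adjusted p = 0.000423). Its SI libraries held 9241 to 10784, 10.1-fold more than LI in tissue (log2 3.34 ± 0.26, adjusted p = 4.38e-06) and 3.69-fold more in monolayers (1.88 ± 0.24, adjusted p = 0.000158). Of 5 further glutathione peroxidases, 1 fell in SI, and 1 rose and 1 fell in LI. Gpx3, the secreted form, fell 2.27-fold in SI (log2 -1.18 ± 0.29, edgeR adjusted p = 0.00262), a value that was -0.72 without SI tissue library 1, and 2.31-fold in LI (-1.21 ± 0.29, adjusted p = 0.00187).

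Gpx8 rose 10.3-fold in LI from 4 to 21 normalized counts to 107 to 161 (log2 3.37 ± 0.46, adjusted p = 6.86e-06), and was higher in SI than in LI tissue (1.85 ± 0.47, adjusted p = 0.00319) but lower in SI than in LI monolayers (-2.01 ± 0.42, edgeR adjusted p = 0.000761). Gpx7 was 2.76-fold lower in SI than in LI tissue (log2 -1.46 ± 0.25, edgeR adjusted p = 0.000118), at 46 to 93 normalized counts against 175 to 237. None of the 3 superoxide dismutases or catalase was called by edgeR with culture in either region, where 3 of these 4 genes in SI and 4 in LI had an unadjusted p under 0.05, and DESeq2 called 0 in SI and 1 in LI. Without the minimum, 2 of the 4 in SI and 4 in LI were lower in monolayers at an edgeR adjusted p under 0.05. In tissue Cat, catalase, was 2.5-fold higher in SI (log2 1.32 ± 0.13, edgeR adjusted p = 3.22e-06) and Sod3, the extracellular dismutase, was 3.10-fold lower in SI (-1.63 ± 0.42, adjusted p = 0.00375). Sod3 rested on low values, at 20 to 48 normalized counts in SI tissue against 50 to 137 in LI tissue.

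**Figure D4:**
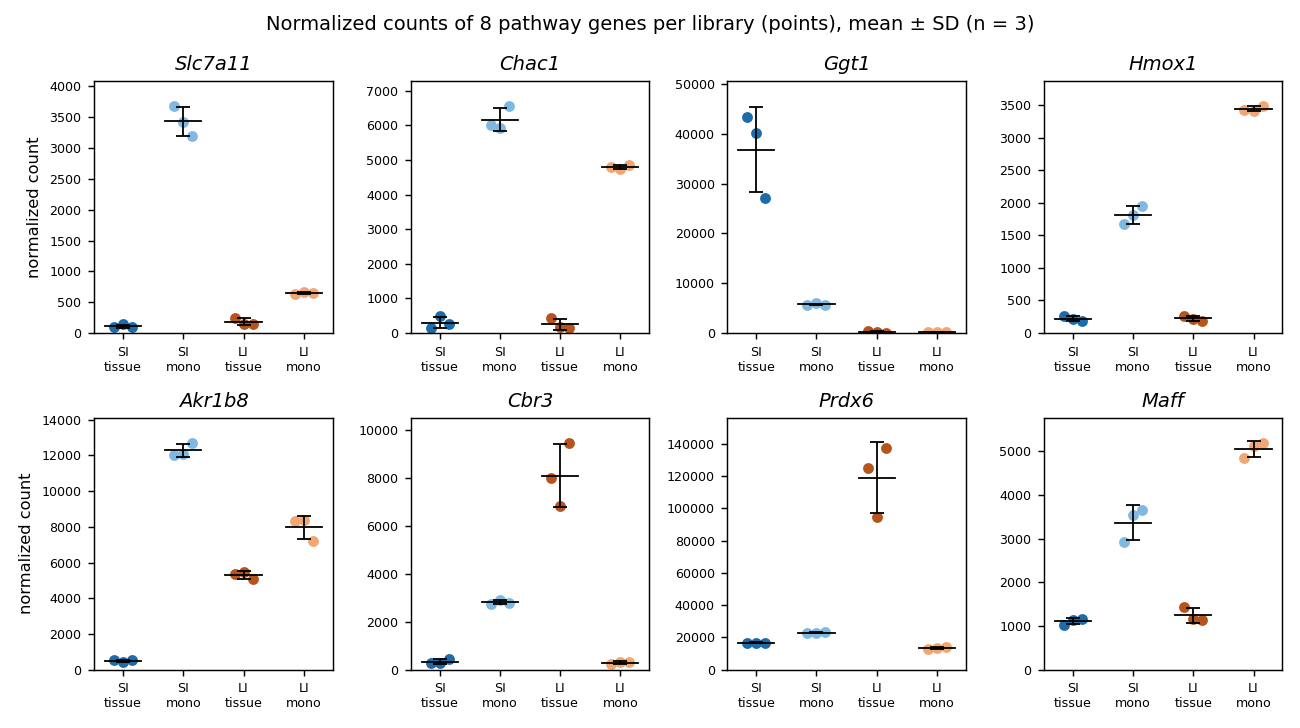
Normalized counts (vertical axes, starting at 0) of Slc7a11, Chac1, Ggt1, Hmox1, Akr1b8, Cbr3, Prdx6 and Maff in each library, as points, with the mean and SD of each group (n = 3, horizontal axes). Slc7a11, Chac1, Hmox1 and Maff stand higher in both monolayer groups, and Cbr3 and Prdx6 stand highest in LI tissue.

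The 12 other NRF2 target genes gave 7 that rose and 1 that fell in SI, against shares of 9.71% and 16.4% of all tested genes. In LI 1 rose and 5 fell, against shares of 14.5% and 23.5%. In tissue 1 of them was higher and 4 were lower in SI than in LI, beside 11.6% and 11.1% of all tested genes, and in monolayers 8 were higher in SI and none lower, beside 12.4% and 8.88%. Their median log2 fold change was 1.02 for culture in SI and -0.52 in LI, beside -0.05 for all tested genes in each. The interaction was called for 8 of the 12, all with the higher value in SI, where 11.4% of all tested genes were called in that direction. This list too was chosen with earlier results of these data known, so the counts are not independent support. Hmox1, heme oxygenase, had 263, 215 and 180 normalized counts in SI tissue and 1681, 1809 and 1959 in SI cultures, with 265, 218 and 187 and 3432, 3416 and 3488 for the same groups in LI. It rose 8.52-fold in SI (log2 3.09 ± 0.13, edgeR adjusted p = 1.64e-11) and 15.9-fold in LI (3.99 ± 0.13, adjusted p = 3.49e-13), and the tissue groups overlapped.

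Akr1b8, an aldo-keto reductase, had 528, 435 and 529 normalized counts in SI and 5337, 5487 and 5086 in LI before culture, and 12041, 12090 and 12698 in SI and 8334, 8370 and 7201 in LI after it. It rose 25.3-fold in SI (log2 4.66 ± 0.09, edgeR adjusted p = 1.61e-15) and was 1.55-fold higher in LI monolayers (0.63 ± 0.07, adjusted p = 9.33e-07), under the minimum. Cbr3, a carbonyl reductase, had 282, 272 and 452 normalized counts in SI tissue and 2743, 2902 and 2786 in SI cultures, with 8012, 6818 and 9462 and 243, 323 and 339 for the same groups in LI. The order of the regions was opposite in tissue and in monolayers. Cbr3 rose 8.54-fold in SI (log2 3.09 ± 0.21, edgeR adjusted p = 5.63e-07) and fell 26.1-fold in LI (-4.71 ± 0.22, adjusted p = 1.74e-08).

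Blvrb, biliverdin reductase B, fell in both regions, 3.06-fold in SI (log2 -1.61 ± 0.09, edgeR adjusted p = 3.13e-10) and 8.21-fold in LI (-3.04 ± 0.10, adjusted p = 1.64e-13). Osgin1 was 2.40-fold higher in SI than in LI tissue (log2 1.26 ± 0.11, edgeR adjusted p = 4.14e-07), and its log2 fold changes with culture were -0.02 ± 0.11 in SI and 0.10 ± 0.11 in LI (adjusted p = 0.9 and 0.464).

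**Figure D5:**
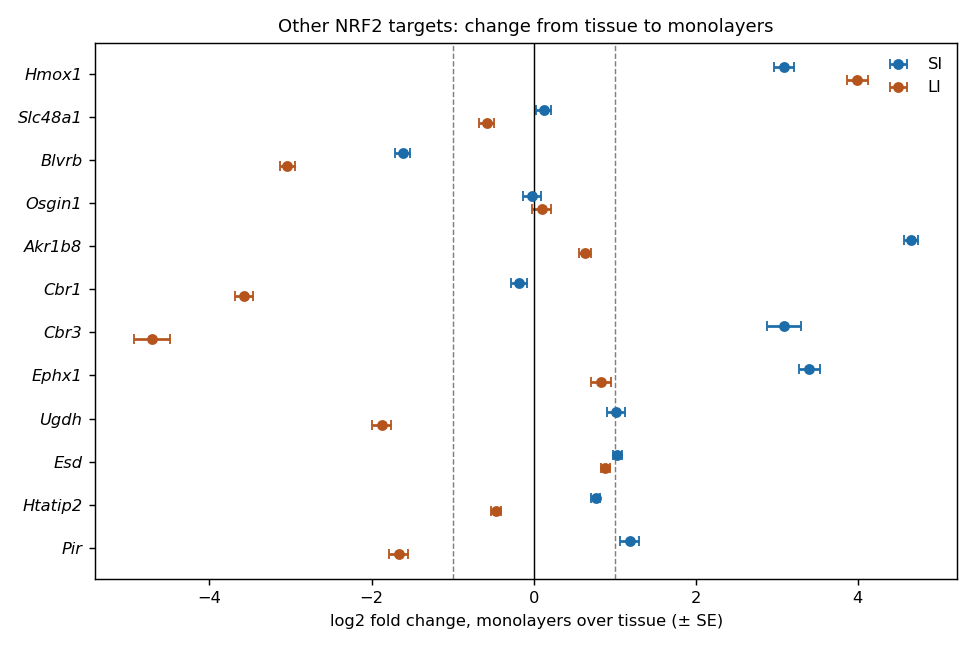
Log2 fold change from tissue to monolayers (horizontal axis, ± SE) of the 12 other NRF2 target genes in SI and in LI, with dashed lines at a 2-fold change. Hmox1 lies above the upper line in both regions and Blvrb below the lower line in both, while Cbr3 lies beyond opposite lines (3.09 in SI and -4.71 in LI).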

How the data were processed

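RNA was sequenced from 12 libraries of mouse small and large intestine. According to the study's methods and the submitters' processing notes, the authors aligned paired-end reads to GRCm38 with STAR 2.7.9a and counted reads per gene of a GENCODE annotation with featureCounts 2.0.2; the handling of mates and strand was not given in the sources used here. The deposited table of raw counts holds whole numbers per gene, of which 73.4% to 77.4% were even among counts of 1 to 20. A count may therefore stand for 1 mate of a pair rather than for a fragment, and library totals with it. The deposited normalized signal is those counts divided by DESeq2 size factors of the authors (0.850 to 1.12, version given as 3.13 in the notes). It was used to show levels and to find which groups overlapped, and not in the edgeR tests.

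Gene names, positions and transcript lengths were taken from GENCODE M21, which named 55141 of the 55487 genes. The study's methods name a later GENCODE release, so the exons counted may differ from those whose lengths were used here. Raw counts of all 12 libraries were fitted in 1 model of 4 group means with edgeR 4.0.16 (R 4.3.3, limma 3.58.1), with its expression filter, TMM factors and the robust quasi-likelihood test. The 5 tests were culture in SI, culture in LI, region in tissue, region in monolayers and their interaction. P-values were adjusted by Benjamini-Hochberg over all 19581 tested genes. The model was tested on simulated data with known changes. The 10 genes, the pathway lists and the marker lists were chosen with earlier results of these data known. For each list and comparison, the called gene with the largest positive and that with the largest negative log2 fold change are named, with their values in the other comparisons where these help, and every pathway gene with a called interaction is given in the closing section. Alternatives were DESeq2 1.42.0, upper quartile normalization, 2 other filters, no minimum fold change, fits on the compared groups alone, the replicate number as a block, halved counts, leaving out each library, and a longer promoter motif. The alternatives for the order of groups and the length of all exons were chosen after seeing the data.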

Additional observations from a re-analysis of the deposited data

Results flagged for a closer look

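The change with culture differed between SI and LI by edgeR's interaction test, at an adjusted p under 0.05 and a log2 difference (SI minus LI) of at least 1, for 3 of the 10 genes and 18 of the 56 further pathway genes, and all of them are given here. The 3 were Nqo1 (1.75 ± 0.11, adjusted p = 5.34e-09), Gclc (1.38 ± 0.08, adjusted p = 3.47e-09) and G6pdx (1.02 ± 0.10, adjusted p = 3.44e-07). Among the 56, the largest difference was that of the carbonyl reductase Cbr3, at 7.80 ± 0.31 (adjusted p = 2.31e-08), and its relative Cbr1 differed by 3.39 ± 0.15 (1.59e-09). Akr1b8 differed by 4.03 ± 0.11 (edgeR adjusted p = 4.24e-13) and Prdx6 by 3.61 ± 0.14 (2.99e-10).

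In the supply of cysteine, Cbs differed by 3.24 ± 0.16 (edgeR adjusted p = 2.77e-10), Cth, which acts after Cbs, by 3.07 ± 0.08 (4.24e-13) and Slc7a11 by 3.07 ± 0.25 (6.12e-07). Other NRF2 targets with the higher value in SI were Ugdh at 2.89 ± 0.16 (edgeR adjusted p = 1.87e-08), Pir at 2.85 ± 0.17 (1.84e-09), the epoxide hydrolase Ephx1 at 2.57 ± 0.17 (1.04e-07), Blvrb at 1.42 ± 0.13 (2.47e-07) and Htatip2 at 1.23 ± 0.08 (9.12e-09). Tkt, transketolase, differed by 1.14 ± 0.07 (edgeR adjusted p = 4.54e-09).

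The change was the lower one in SI for 5 of the 56 genes. Slc3a2, the partner subunit of Slc7a11 in the cystine importer, differed by -2.05 ± 0.16 (edgeR adjusted p = 6.23e-07), opposite in sign to Slc7a11. Gpx1 differed by -1.33 ± 0.10 (edgeR adjusted p = 2.55e-08), Me1 by -1.46 ± 0.34 (0.0069), Ggt1 by -2.88 ± 0.70 (0.00887) and Gpx8 by -3.87 ± 0.63 (0.000108). Groups of 3 libraries are too small for a test of single outlying libraries.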

How the results depend on the processing

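Over all alternatives, 929 of 990 repeated log2 fold changes of the 10 genes, and 1037 of 1038 of the named pathway genes, kept their direction and their side of the threshold. Without a minimum fold change the 10 genes gave 7 calls in SI, 9 in LI, 10 in tissue, 10 in monolayers and 7 in the interaction, and all genes gave 11674, 13445, 10558, 10145 and 9069 in place of 5110, 7442, 4446, 4159 and 3909. With at least 10 counts in every library all genes gave 3140, 4797, 2606 and 2442 calls in the first 4 comparisons, from fewer genes tested. Upper quartile normalization shifted the median log2 fold change of all genes in LI culture by -0.12. Leaving out 1 library at a time gave 1 to 1 calls among the 10 genes in SI, 2 to 2 in LI, 1 to 2 in tissue (Gpx2 gained), 4 to 5 in monolayers (Gclc gained) and 2 to 4 in the interaction, and 22 to 24 neighbouring pairs in the order of groups.

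Values near 0 changed sign. Srxn1 in SI was 0.022 when only the compared groups were fitted and -0.082 to 0.062 with 1 library left out, Nfe2l2 in the interaction was -0.0099 and -0.076 without SI tissue library 3 and LI tissue library 2 (range -0.076 to 0.16), and Gclm in LI was 0.0010 without LI tissue library 3 (range -0.13 to 0.0010). Dividing by the length of all exons in place of the longest coding transcript, chosen after seeing the data, changed the order of genes by level as given above. The motif core followed by A occurred in 1 of 8 genes in place of 5.

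Deviations of same-numbered libraries correlated across genes between -0.0516 and 0.0563. This cannot decide whether libraries shared mice, since such libraries may be numbered in another order. With the replicate number as a block the 10 genes gave 1, 2, 1, 4 and 3 calls, as without it, and all genes 5017, 7367, 4383, 4083 and 3807.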

Other observations

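For Nqo1, Gpx2 and Nfe2l2, the genes with the most similar pattern were sought among 9218 genes with a mean of at least 10 CPM, by the root mean square difference of log2 CPM over the 12 libraries after centring each gene on its mean. The measure is a description over libraries that share groups, with no test. Nqo1 was closest to Tmem97 (0.096), Gstp2 (0.12) and Dtd1 (0.17), where the median over all genes was 0.71. Gstp2 is nearly identical to Gstp1, so its counts are uncertain. Gpx2 was closest to Aldh5a1 (0.17), Cmbl (0.17) and Sec16b (0.18), against a median of 1.01. Nfe2l2 was closest to Ide (0.091), Aprt (0.094) and Ifrd2 (0.099), against a median of 0.56.

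Within the 10 genes the same measure was smallest between Keap1 and Gclm (0.18) and between Nfe2l2 and Txnrd1 (0.19), and largest between Gclc and Gpx2 (1.28). The subunits of glutamate-cysteine ligase, Gclc and Gclm, were 0.64 apart, farther than Nfe2l2 was from either (0.39 and 0.42).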
